A study of Mus musculus with 49 samples.

Results

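The genes described here build the extracellular matrix, attach cells to it or cut it. They were chosen by symbol: the collagen, laminin, fibrillin, fibulin and nidogen chains, the integrin genes, the matrix metalloproteinases (Mmp), their tissue inhibitors (Timp), the Adamts proteases, and Hspg2, Fn1, Sparc, Dcn, Lum, Bgn, Vcan and Postn. Of the 13093 genes of the deposited table, 91 matched this pattern; 1 of them is not reported here, and the other 90 are described. The pattern also takes in 4 genes that are not integrins, namely Itgb1bp1, Itgb1bp2, Itgb1bp3 and Itgb3bp, of which Itgb3bp encodes a centromere protein. Integrin genes without a chain number in the symbol, such as Itgav, fall outside the pattern. These genes, and family members outside the table, were not analysed here.

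RNA was sequenced from 49 single cells of the metanephric mesenchyme, the kidney rudiment's loose tissue that gives rise to nephrons and stroma, dissected from mouse embryos at 11.5 days post coitum (Theiler stage 19). All embryos carried the Tg(Crym-EGFP)82Gsat reporter transgene on a mixed background, both sexes were included, and the labels name no embryo or litter. The dissection was guided by the fluorescence, which marks nephron progenitors at this age, and took a few cells past its edge. Every cell went through 1 sequencing run and lane, per the file header, so all of them were treated as 1 sample without replication, and no p-values are given.

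Collagens wind 3 chains into a helix and either form fibrils or a sheet-like network, laminins and nidogens join that network in basement membranes, and glycoproteins such as fibronectin link the fibres to the cell surface. Integrins are receptors made of an alpha and a beta chain that grip these ligands. Metalloproteinases and Adamts enzymes trim or destroy matrix proteins. In the embryonic kidney, basement membrane is laid down around the ureteric bud and around new epithelium, while stroma is known for its fibrillar matrix.

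Cells were placed in 4 classes by the nephron progenitor regulator Six2 and the stromal regulator Foxd1, each counted as found at 1 RPKM or more (reads divided by gene length and by the size of the library). There were 15 cells with Foxd1 only, 9 with both, 7 with neither and 18 with Six2 only. Foxd1 had a median of 30.3 RPKM in the Foxd1-only cells and 7.12 RPKM in the cells with both. Six2 had a median of 46.1 RPKM in the cells with both and 49.2 RPKM in the Six2-only cells. The classes are ranges of these values rather than types: Foxd1 lay between 0.1 and 10 RPKM in 18 cells, and Six2 did so in 13. A marker list for stroma that holds no matrix gene summed to a median of 705 RPKM in Foxd1-only cells, 248 in cells with both, 427 in cells with neither and 148 in Six2-only cells. The nephron progenitor list summed to 122, 769, 40.7 and 808 RPKM in the same order. The stroma list includes Foxd1 and the nephron progenitor list includes Six2. These sums thus partly repeat the values that set the classes and are no independent check of them.

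Depth per cell is not in the table, but the spacing of low values gave relative depth. It ran from 0.0462 to 1.27 times the median cell in Foxd1-only cells, 0.0346 to 1.17 in cells with both, 0.693 to 1.35 in cells with neither and 0.699 to 1.52 in Six2-only cells. The low ends of the first pair of ranges are cell 7 (Foxd1-only) and cell 3 (both), the shallow cells, whose lowest values above 0 among these genes were 0.77 and 0.284 RPKM, while those of the other cells were 0.117 RPKM or less. Cell 25, of the Foxd1-only class, held 9 of 10 ureteric bud markers, with a sum of 797 RPKM. Cell 27, with neither regulator, held all 7 endothelial markers analysed, with a sum of 1030 RPKM, and 2 of 3 macrophage markers. The highest endothelial sum was 7.09 RPKM in Foxd1-only cells, 14.1 in cells with both and 15.6 in Six2-only cells. For the macrophage markers the sum was 87.4 RPKM in cell 27 but 124 in the Six2-only cell 13. No Six2-only cell held more than 1 macrophage marker. For the ureteric bud markers the highest Six2-only sum was 163 RPKM, in cell 29, and no Six2-only cell held more than 3 of them. Counts of genes past a difference are also given without cells 3 and 7 and without cells 25 and 27.

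Promoter windows are shown for 4 genes on which the results turn: Col1a2 and Col3a1, among the genes with the largest excess in Foxd1-only cells, Vcan, the only member lower there, and Col4a2, which starts head to head with its partner chain gene Col4a1. The windows are from RefSeq on GRCm38.p6, from 250 bases before to 50 after each start, written 5′ to 3′ on the gene's strand. They are chr6:4505368-4505667 (plus strand) for Col1a2, chr1:45311288-45311587 (plus) for Col3a1, chr13:89742463-89742762 (minus) for Vcan and chr8:11312555-11312854 (plus) for Col4a2. In the first 3, capitals mark the letters CCAAT, the core promoter letters TATAAA or the letters GGGCGG of a GC box, on either strand. In the window of Col4a2, capitals mark the 78 bases that also lie in the window of Col4a1 (chr8:11312777-11313076, minus), whose start is 21 bases away on the other strand.
Col1a2: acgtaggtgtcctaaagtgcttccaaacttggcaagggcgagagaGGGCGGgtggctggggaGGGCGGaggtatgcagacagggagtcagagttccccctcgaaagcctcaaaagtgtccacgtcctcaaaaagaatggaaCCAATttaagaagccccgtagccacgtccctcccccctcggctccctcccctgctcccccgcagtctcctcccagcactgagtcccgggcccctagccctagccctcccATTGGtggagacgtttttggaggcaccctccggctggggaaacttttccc
Col3a1: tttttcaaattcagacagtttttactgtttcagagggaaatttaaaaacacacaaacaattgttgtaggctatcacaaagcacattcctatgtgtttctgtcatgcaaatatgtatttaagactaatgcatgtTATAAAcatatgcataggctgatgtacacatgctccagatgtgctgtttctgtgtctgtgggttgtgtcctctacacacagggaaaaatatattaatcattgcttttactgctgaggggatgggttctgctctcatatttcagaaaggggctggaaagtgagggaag
Vcan: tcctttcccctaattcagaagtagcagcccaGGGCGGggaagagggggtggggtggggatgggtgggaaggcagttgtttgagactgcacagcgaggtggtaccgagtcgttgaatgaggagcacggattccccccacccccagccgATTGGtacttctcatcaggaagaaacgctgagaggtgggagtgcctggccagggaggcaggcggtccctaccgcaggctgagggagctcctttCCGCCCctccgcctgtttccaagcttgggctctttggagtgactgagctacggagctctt
Col4a2: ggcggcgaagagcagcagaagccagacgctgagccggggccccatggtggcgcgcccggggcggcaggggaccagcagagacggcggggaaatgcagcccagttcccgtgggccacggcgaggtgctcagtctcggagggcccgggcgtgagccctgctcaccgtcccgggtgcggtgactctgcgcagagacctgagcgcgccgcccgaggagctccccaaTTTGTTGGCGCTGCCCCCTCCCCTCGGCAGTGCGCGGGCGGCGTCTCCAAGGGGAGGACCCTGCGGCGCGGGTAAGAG

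A window was given for 58 of the 90 genes (66 windows, since some genes have more than 1 start). CCAAT stood in 20 of these windows (30.3%), against 37.4% of all 32851 windows. TATAAA stood in 4 (6.06%), against 13.6% of all, and GGGCGG in 43 (65.2%), against 35.7%. The Col3a1 window is 37.7% G and C and holds TATAAA, with its first base at -117 from the start, but neither other motif. The Col1a2 window is 61% G and C and holds CCAAT and GGGCGG but not TATAAA. Its CCAAT matches begin at -109 and, on the reverse strand, at 0. A match is a description of these letters and not a bound site.

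Most matrix genes were found in few cells, and a small number in nearly all. At 1 RPKM, 16 of the 90 genes were found in 25 or more cells, 26 in 10 to 24, 19 in 4 to 9 and 29 in 3 or fewer, of which 13 were found in 1 cell. The median over all cells was 0 for 57 genes. Of all values of these genes in single cells, 26.8% reached 1 RPKM, while 39.7% of the values of all genes did. The genes found most widely were Sparc in all 49 cells, Vcan and Itgb1 in 48 each, Fbn2 in 45, Adamts1 in 39, Mmp14 in 38, Mmp2 in 37 and Fn1 in 36. Those 4 at the head of the list were the only members at 0 in no cell. Sparc encodes a secreted collagen-binding glycoprotein, and it was the highest of the 90 genes in 31 cells; Vcan was the highest in 4 cells and Itgb1 in 3.

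Foxd1-only cells held more matrix genes than Six2-only cells. The number found per cell was 19 at the lowest, 28 at the median and 40 at the highest in Foxd1-only cells, 16, 32 and 36 in cells with both, 9, 28 and 33 in cells with neither, and 11, 15 and 32 in Six2-only cells. The highest count, 40, was in the shallow cell 7, whose lowest value above 0 among these genes, 0.77 RPKM, was near the threshold. The ranges overlapped, but the lowest Foxd1-only cell stood above the median Six2-only cell. The number of all genes found had a median of 5232 in Foxd1-only cells, 5670 in cells with both, 4246 in cells with neither and 4960.5 in Six2-only cells. Cell 44, with neither regulator, had the fewest matrix genes (9) and the fewest genes of all (3610).

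**Figure D1:**
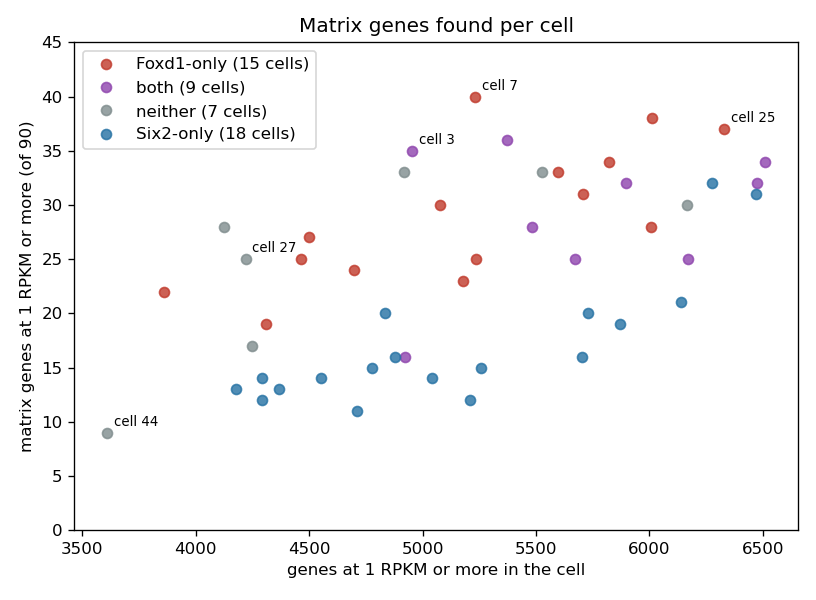
Number of matrix genes at 1 RPKM or more (vertical axis, of 90) against the number of all genes at 1 RPKM or more (horizontal axis), 1 point for each of the 49 cells, coloured by Foxd1 and Six2 status. At like numbers of genes, most Six2-only cells lie below the Foxd1-only cells; the medians were 28 matrix genes in Foxd1-only cells and 15 in Six2-only cells.

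The classes were compared by the difference in mean log2(RPKM + 1), Foxd1-only minus Six2-only, and a gene was called past the difference at 1 or more in either direction. On this scale the change of low genes is understated. Of the 90 genes, 22 (24.4%) were higher by this measure, against 7.78% of all genes in the table, and 1 (1.11%) was lower, against 8.75% of all genes. The difference was above 0 in 64 members and below 0 in 24, and its median was 0.27, against 0 for all genes. Without cells 25 and 27, 19 members were higher and 2 lower, and without cells 3 and 7, 22 were higher and 1 lower. With a pseudocount of 10 RPKM in place of 1, which weighs low levels less, 9 members were higher, against 1.33% of all genes. The calls that ended there were those of Col9a1, Col5a1, Bgn, Lamb1, Nid1, Col4a5, Itga5, Mmp11, Mmp14, Adamts3, Adamts5, Adamts9 and Adamts10. In all 23 genes past the difference the ranges of the 2 classes overlapped. In 10 of them the difference exceeded the SD over cells of both classes. In 19 of the 22 higher genes the mean of the cells with both regulators lay between the means of the Foxd1-only and Six2-only cells. The mean of the cells with neither did so in 17 of the 22. These genes were picked for a wide gap between those 2 class means, so other means tend to fall inside it. The same share among all higher genes was not computed, so the counts show nothing particular to matrix genes. By family, 5 of 9 fibrillar collagens and 6 of 14 Adamts genes were higher. So were 3 of 11 metalloproteinases, 3 of 15 basement membrane genes and 3 of 13 glycoproteins and proteoglycans. In the other collagens (1 of 10) and the integrins (1 of 11) the share was near the 7.78% of all genes. None of the 3 Timp genes and none of the 4 genes named for integrin binding was past the difference, but such small sets tell little.

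**Figure D2:**
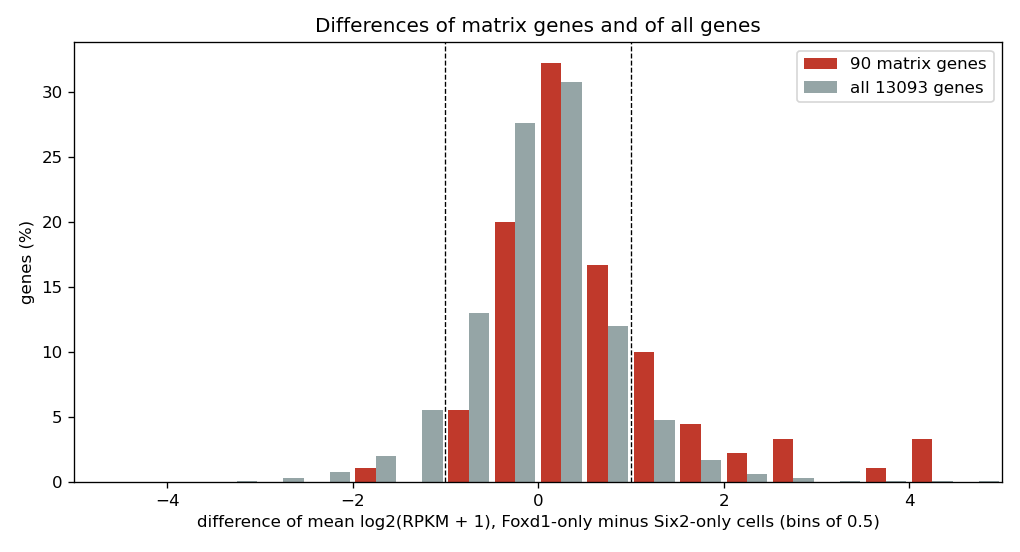
Share of genes (percent, vertical axis) by difference of mean log2(RPKM + 1), Foxd1-only minus Six2-only cells, in bins of 0.5; red bars are the 90 matrix genes, grey bars all 13093 genes, and dashed lines mark 1 and -1. The bars of the matrix genes reach further right, with 24.4% at 1 or more against 7.78% of all genes, and 1 gene lies below -1.

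Fibrillar collagens, the rope-forming members, differed most. Their summed level was 57.5 RPKM in the lowest, 130 in the median and 312 in the highest Foxd1-only cell, 10.9, 66.1 and 175 RPKM in cells with both, 1.27, 47.1 and 182 in cells with neither, and 0.223, 4.90 and 140 in Six2-only cells. The median Six2-only cell thus stood below the lowest Foxd1-only cell, although the ranges overlapped.

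Col3a1 encodes the single chain of type III collagen of loose connective tissue (table coordinates on mm9, chr1:45368383-45406551). It had a lowest, median and highest level of 0.207, 45.6 and 115 RPKM in Foxd1-only cells, 0.184, 13.7 and 57.3 in cells with both, 0, 0.653 and 63.2 in cells with neither, and 0, 0.206 and 24.2 RPKM in Six2-only cells. It was found in 14 of 15 Foxd1-only cells (93.3%, exact 95% interval 68.1 to 99.8) and 4 of 18 Six2-only cells (22.2%, 6.41 to 47.6). The interval covers counting error alone. The difference was 4.36, with a mean log2 level of 5.26 ± 1.52 in Foxd1-only cells and 0.90 ± 1.33 in Six2-only cells (SD over cells). No Six2-only cell exceeded the Foxd1-only median.

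Col1a1 and Col1a2 encode the chains of type I collagen, the main fibre of connective tissue. Col1a1 (chr11:94797584-94813170 on mm9) was at 6.33, 27.6 and 66.3 RPKM in the lowest, median and highest Foxd1-only cell, 0.237, 8.75 and 29.4 in cells with both, 0, 3.40 and 42.3 in cells with neither, and 0, 0 and 16.9 in Six2-only cells. Col1a1 was the one collagen gene found in every Foxd1-only cell, and it was found in 3 of the 18 Six2-only cells. Its partner Col1a2 was at 0.609, 22.6 and 189 RPKM in Foxd1-only cells, 0.0488, 9.76 and 85.0 in cells with both, 0.0684, 29.6 and 40.9 in cells with neither, and 0, 0.0641 and 22.3 in Six2-only cells, of which 2 held it. The highest Col1a2 value is that of the shallow cell 7. Differences were 4.10 for Col1a1 and 4.04 for Col1a2, and no Six2-only cell was above the Foxd1-only median of either gene.

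The minor fibril chains followed with smaller differences. Col5a2, a chain of type V collagen, which starts fibrils, was found in 12 Foxd1-only cells, 6 with both, 3 with neither and 1 Six2-only cell, with medians of 8.33, 2.73, 0.893 and 0.0348 RPKM and a difference of 2.75. Col5a1, its partner chain, was found in 8, 6, 3 and 4 cells of these classes, and its difference was 1.06, or 0.91 with status set at 0.1 RPKM. The other fibrillar collagen genes were found in fewer cells. Col2a1, of cartilage type, was found in 17 cells with a difference of 0.05, and its highest value, 133 RPKM, was in the Six2-only cell 8. Col11a1 (14 cells, difference 0.67) and Col24a1 (7 cells, 0.89) were not past the difference, and Col27a1 was found in 3 cells.

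**Figure D3:**
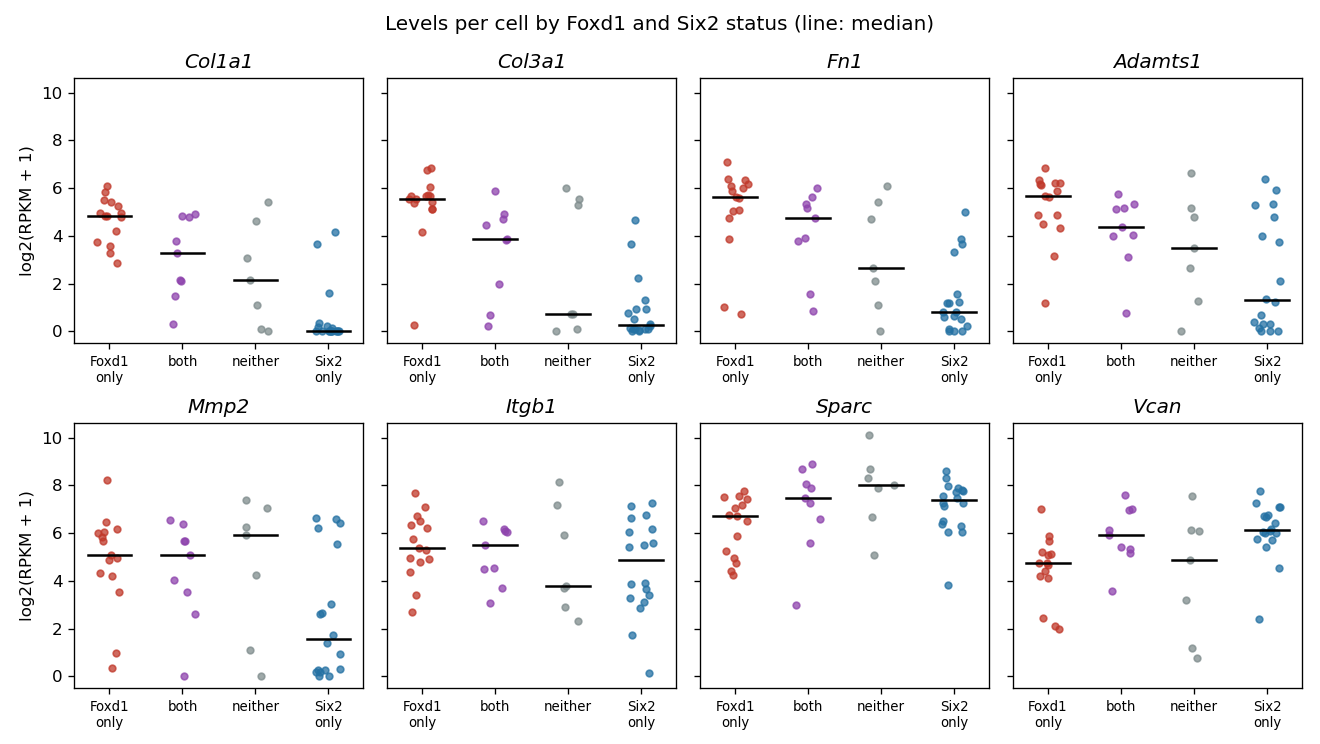
Level per cell, log2(RPKM + 1) on the vertical axis, of 8 widely found genes in the 15 Foxd1-only, 9 both, 7 neither and 18 Six2-only cells; each point is 1 cell and the line is the class median. Col1a1, Col3a1 and Fn1 have all Six2-only cells below the Foxd1-only median, whereas Itgb1 and Sparc overlap throughout and most Six2-only points of Vcan lie above the Foxd1-only median.

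Among glycoproteins and proteoglycans, 3 of 13 were higher and 1 was lower in Foxd1-only cells. Fn1 encodes fibronectin, an adhesive glycoprotein bound by integrins (chr1:71632097-71699745 on mm9). It was at 0.635, 47.8 and 136 RPKM in the lowest, median and highest Foxd1-only cell, 0.792, 25.9 and 63.3 in cells with both, 0, 5.21 and 66.9 in cells with neither, and 0, 0.758 and 31.2 in Six2-only cells. The difference was 3.67, and no Six2-only cell exceeded the Foxd1-only median, although 8 of 18 held the gene. Fn1 overlaps Apol7d in the table, and this chemistry keeps no strand, so reads from the overlap cannot be told apart.

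Fbn2, the microfibril protein fibrillin-2, was found in all 15 Foxd1-only cells and in 15 of 18 Six2-only cells. It was at 8.92, 37.4 and 92.0 RPKM in Foxd1-only cells, 1.15, 21.6 and 103 in cells with both, 0.372, 32.1 and 39.2 in cells with neither, and 0.363, 10.3 and 44.8 in Six2-only cells, with a difference of 1.94. Its relative Fbn1 was lower and showed a difference of 0.17, with medians of 0.256 RPKM in Foxd1-only cells, 0.213 in cells with both, 0.312 in cells with neither and 0.211 in Six2-only cells. Bgn encodes biglycan, a small collagen-binding proteoglycan. It was found in 6 Foxd1-only cells, 3 with both, 4 with neither and 0 of 18 Six2-only cells, where its highest value was 0.251 RPKM and the exact 95% interval allows a share of up to 18.5%. Its difference was 1.72 between means but 0 between medians, and 0.70 with a pseudocount of 10 RPKM. The highest value of Bgn was 287 RPKM in cell 31.

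Vcan, the large hyaluronan-binding proteoglycan versican (chr13:89794915-89882117 on mm9), was the single gene past the difference in the other direction. It was at 2.96, 25.6 and 126 RPKM in Foxd1-only cells, 11.0, 60.1 and 193 in cells with both, 0.693, 28.4 and 187 in cells with neither, and 4.36, 68.8 and 219 RPKM in Six2-only cells. All cells of both single-regulator classes held it, so the classes differed in level and not in detection. Its difference was -1.61, with mean log2 levels of 4.49 ± 1.40 in Foxd1-only cells and 6.11 ± 1.19 in Six2-only cells (SD over cells), and 16 of 18 Six2-only cells stood above the Foxd1-only median. Vcan overlaps Gm4117 in the table. With status set at 0.1 RPKM the difference was -0.88, no longer past 1.

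Sparc was high everywhere, with 18.2, 103 and 219 RPKM in Foxd1-only cells, 6.82, 175 and 471 in cells with both, 33.1, 256 and 1088 in cells with neither, and 13.1, 165 and 383 in Six2-only cells. Its difference of -0.84 was not past 1, and 12 of 18 Six2-only cells were above the Foxd1-only median. Fbln1, the elastic-fibre protein fibulin-1, was found in 26 cells, with medians of 0.716, 4.97, 8.89 and 1.73 RPKM in the Foxd1-only, both, neither and Six2-only classes and a difference of 0.80, or -0.48 between medians. Dcn and Lum, small leucine-rich proteoglycans of mature connective tissue, were found in 6 and 3 cells, and both had their highest values, 325 and 102 RPKM, in cell 39, which has neither regulator. Postn, a matricellular gene often used to mark fibroblasts, was found in 6 cells and its highest value, 33.1 RPKM, was in the Six2-only cell 48.

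**Figure D4:**
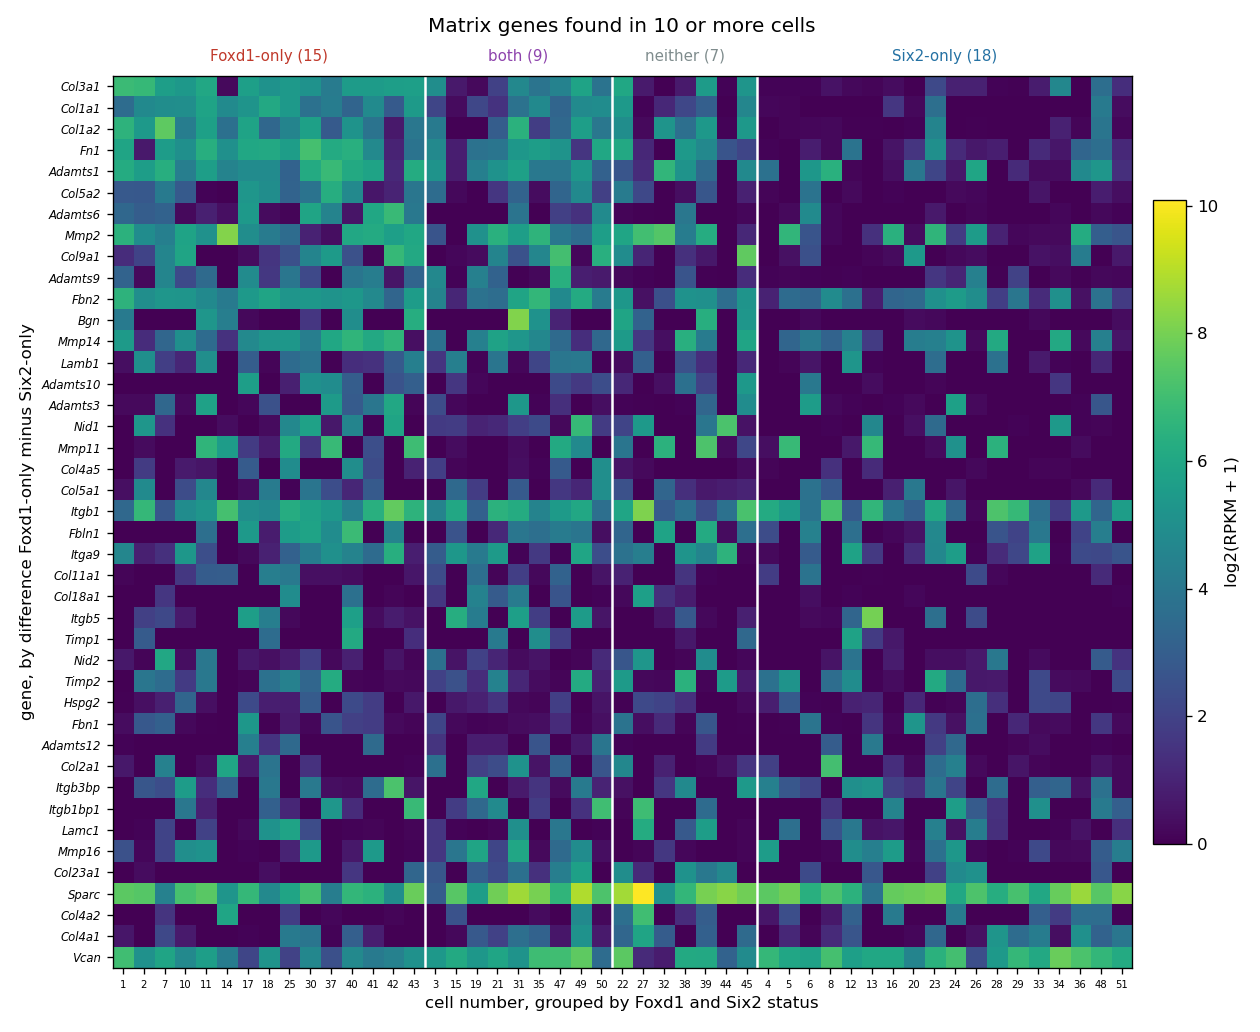
Level of the 42 matrix genes found in 10 or more cells (rows, ordered by difference, highest at the top) in the 49 cells (columns, by class, with cell numbers), as log2(RPKM + 1) by colour. The top rows (Col3a1, Col1a1, Col1a2, Fn1) are bright in Foxd1-only cells and mostly dark in Six2-only cells, while Sparc and Vcan near the bottom are bright in nearly every column.

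Basement membrane genes showed no common direction: 3 of 15 were higher, none was lower, and the median difference was 0.19. Col4a1 and Col4a2 encode the partner chains of type IV collagen, the network collagen of every basement membrane. Col4a1 was found in 4 Foxd1-only cells, 5 with both, 5 with neither and 10 Six2-only cells, with medians of 0.0842, 2.90, 7.53 and 1.25 RPKM. Col4a2 was found in 3, 2, 4 and 8 cells of these classes. The differences, -0.88 and -0.87, were alike in size and below 0, but neither was past 1 and each was smaller than the SD over cells. The highest values of both genes, 57.9 RPKM for Col4a1 and 127 for Col4a2, were in cell 27, the cell with endothelial genes.

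The 3 higher basement membrane genes were Lamb1, Nid1 and Col4a5. Lamb1, the laminin beta-1 chain, was found in 11 Foxd1-only cells, 6 with both, 4 with neither and 4 Six2-only cells, with medians of 2.68, 3.33, 1.26 and 0.0322 RPKM and a difference of 1.41, or 0.86 with status set at 0.1 RPKM. Nid1, which bridges laminin and type IV collagen, had a difference of 1.13 and Col4a5, a chain of the later glomerular basement membrane, 1.09; without cells 25 and 27 these were 0.93 and 0.83. With the median over cells Nid1 was at 0.33 and Col4a5 at 0.55, and with status set at 0.1 RPKM at 0.86 and 0.76; Nid1 was at 0.90 with status set at 10 RPKM. The laminin gamma-1 gene Lamc1, the usual partner of Lamb1, was found in 18 cells with a difference of -0.12, which was above 0 at each other status threshold (0.16 to 0.41). Hspg2, which encodes perlecan, was found in 17 cells, rarely high, with a highest value of 11.4 RPKM and a difference of 0.19. Laminin alpha genes were sparse. Lama2 was found in 9 cells, Lama1 and Lama4 in 5 each and Lama5 in 3. The highest value of Lama1, 15.4 RPKM, was in cell 25, the cell with ureteric bud genes, and that of Lama4, 112 RPKM, in cell 27. Cell 27 held the highest value of 9 of the 90 genes in all, among them Lamc1 at 73.5 RPKM, Col18a1 at 50.5 and Sparc at 1088.

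The other collagens were mostly rare, and 5 of 10 were found in 3 or fewer cells. Col9a1, a collagen that decorates fibril surfaces in cartilage, and Col23a1 were the exceptions, found in 23 and 20 cells. Col9a1 was found in 11 Foxd1-only cells, 5 with both, 4 with neither and 3 Six2-only cells. Its medians were 4.51, 4.85, 1.07 and 0.208 RPKM and its difference was 2.07. Its highest value, 197 RPKM, was in cell 45, with neither regulator. Col23a1, a transmembrane collagen, was found in 2 Foxd1-only, 7 both, 5 neither and 6 Six2-only cells, and its difference was -0.72. Col14a1 was found in 0 of 15 Foxd1-only cells, 0 with both, 3 with neither and 4 Six2-only cells, at up to 38.7 RPKM. The 0 of 15 Foxd1-only cells allow a share of up to 21.8% by the exact 95% interval.

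Among the integrin genes described, transcripts were carried mainly by Itgb1, the beta chain shared by most matrix receptors (chr8:131209554-131257479 on mm9). It was at 5.50, 40.1 and 201 RPKM in the lowest, median and highest Foxd1-only cell, 7.45, 44.3 and 88.6 in cells with both, 3.93, 12.8 and 278 in cells with neither, and 0.118, 28.1 and 152 in Six2-only cells. The difference of 0.89 was not past 1, and 9 of 18 Six2-only cells stood above the Foxd1-only median. Among the alpha chains described, Itga9, which binds tenascin and other ligands, was the one found widely. It was found in 10 Foxd1-only, 7 both, 5 neither and 12 Six2-only cells. Its medians were 7.65, 6.64, 18.7 and 2.84 RPKM and its difference was 0.75.

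Itga5, the alpha chain of the main fibronectin receptor, was found in 9 cells: 5 Foxd1-only, 1 with both, 1 with neither and 2 Six2-only. Its difference of 1.19 made it the only integrin described that was past the difference. However, that difference was 0.94 with status set at 10 RPKM, 0.42 with a pseudocount of 10 RPKM and 0.37 between medians. Itgb5 was found in 15 cells with a difference of 0.50, and its highest value, 253 RPKM, was in the Six2-only cell 13, where it was the highest of all 90 genes. The remaining alpha genes described were Itga6 in 4 cells, Itga2, Itga3 and Itga4 in 3 each and Itga11 in 1. Itga2 reached 153 RPKM in cell 27. Itgb4 and Itgb2l were each found in 1 cell. Of the genes that match the integrin pattern by name alone, Itgb3bp was found in 28 cells and Itgb1bp1 in 22, with differences of -0.06 and -0.07; that of Itgb3bp was 0.11 without cells 25 and 27 and 0.10 with a pseudocount of 10 RPKM.

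Adamts proteases held 6 of the 22 higher genes. Adamts1, which cuts versican and aggrecan (chr16:85794073-85803360 on mm9), was found in all 15 Foxd1-only cells. It was at 1.26, 49.2 and 114 RPKM in Foxd1-only cells, 0.683, 19.7 and 52.5 in cells with both, 0, 10.2 and 98.0 in cells with neither, and 0, 1.45 and 82.9 in Six2-only cells, of which 10 held it. Its difference was 2.86, and 2 of 18 Six2-only cells were above the Foxd1-only median. Adamts6 was found in 9 Foxd1-only, 4 both, 1 neither and 1 Six2-only cell, with a difference of 2.62.

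Adamts9, another enzyme that cuts versican, was found in 11 Foxd1-only, 4 both, 2 neither and 4 Six2-only cells, with a difference of 2.00; it overlaps A730049H05Rik in the table. Smaller differences were those of Adamts10 at 1.34, Adamts3, which trims procollagen, at 1.23, and Adamts5, a further versican-cutting enzyme, at 1.08. Between medians the differences were 0 for Adamts10, 0.21 for Adamts3 and 0 for Adamts5. Adamts5 was found in 5 Foxd1-only cells and no Six2-only cell, and its difference was 0.91 without the shallow cells 3 and 7 and 0.83 with status set at 0.1 RPKM. The other 8 Adamts genes were not past the difference, and 5 of the 14 were found in 3 or fewer cells.

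Mmp2 and Mmp14, the most widely found metalloproteinases, are known as a pair, since the membrane enzyme Mmp14 activates the gelatinase Mmp2 with the help of Timp2. Mmp2 was at 0.281, 33.4 and 295 RPKM in Foxd1-only cells, 0, 33.0 and 93.0 in cells with both, 0, 59.9 and 166 in cells with neither, and 0, 2.00 and 98.9 in Six2-only cells, with a difference of 2.36. Mmp14 was at 0.335, 31.7 and 97.2 RPKM in Foxd1-only cells, 0, 12.1 and 55.2 in cells with both, 0, 17.6 and 80.6 in cells with neither, and 0, 8.53 and 68.4 in Six2-only cells, with a difference of 1.68. The classes overlapped more than for Col1a1, Col1a2 and Col3a1, for which no Six2-only cell stood above the Foxd1-only median. For Mmp2, 5 Six2-only cells stood above it, and for Mmp14, 3 did. Mmp11 was found in 8 Foxd1-only, 2 both, 4 neither and 4 Six2-only cells, at up to 155 RPKM, with a difference of 1.11. That difference was 0.86 without cells 25 and 27, 0.46 with a pseudocount of 10 RPKM and 0.06 with status set at 0.1 RPKM. Mmp16, a membrane enzyme, was found in 24 cells and had a difference of -0.38.

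The inhibitors bind and block these enzymes, and none was past the difference. Timp2 was found in 8 Foxd1-only, 6 both, 3 neither and 8 Six2-only cells, with medians of 2.25, 1.45, 0.657 and 0.588 RPKM and a difference of 0.24, or -0.16 with status set at 0.1 RPKM. Timp1 was found in 10 cells, with a difference of 0.47. Timp3 reached 92.9 RPKM in the Six2-only cell 20 and was found in no other cell; it overlaps Syn3 in the table.

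Chains that assemble into 1 protein were not always found in the same cells. Col1a1 and Col1a2 were found together in 28 cells (57.1%, exact 95% interval 42.2 to 71.2), where independent detection would give 17.7, and every cell with Col1a2 also held Col1a1. Over the 49 cells their levels had a Spearman correlation of 0.75. Col4a1 and Col4a2, which share a start region and lie 3 bases apart in the table, were found together in 11 cells against 8.33 if independent, and in 30 cells with either chain, with a correlation of 0.18. The type V chains Col5a1 and Col5a2 were found together in 12 cells, against 9.43 if independent, with a correlation of 0.24. These correlations describe cells that share depth and detection rate, and they pool classes between which such genes as Col1a1 and Col1a2 differ. The counts if independent also pool all 49 cells and take no account of class.

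Complete laminin sets were rare, with Lama1, Lamb1 and Lamc1 together in 2 cells, Lama4, Lamb1 and Lamc1 in 3, and Lama5, Lamb1 and Lamc1 in 0 of 49, which allows a share of up to 7.25% by the exact 95% interval. Itgb1 was found in 48 cells, so joint detection with an alpha chain nearly equalled the count of that chain. Itga9 and Itgb1 were found together in 34 cells, against 33.3 if independent, with a correlation of -0.09.

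**Figure D5:**
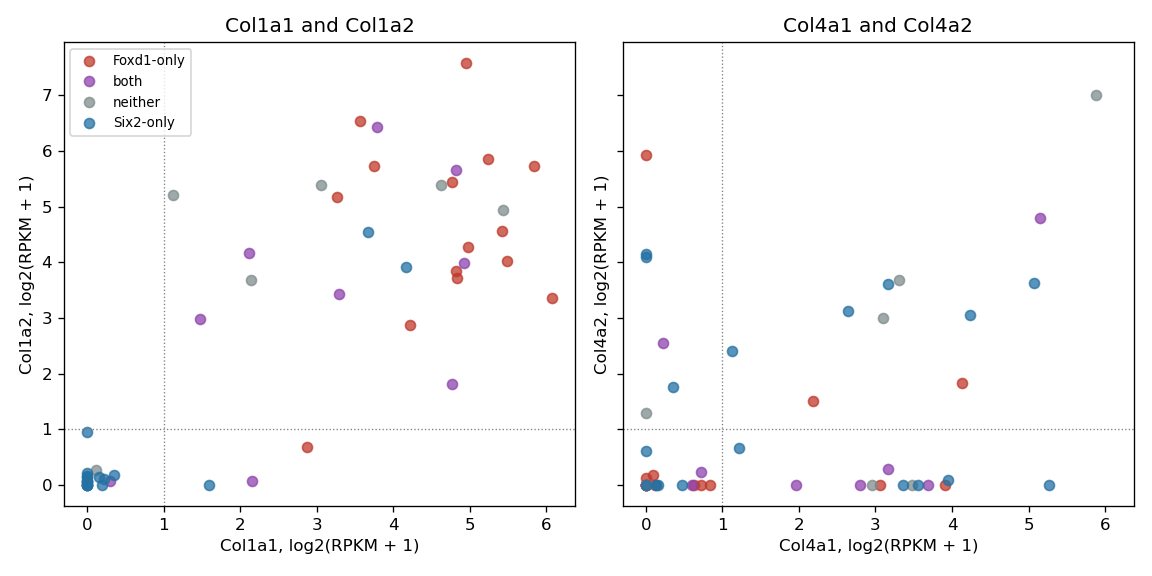
Levels of partner chains in the 49 cells as log2(RPKM + 1): Col1a2 against Col1a1 on the left, Col4a2 against Col4a1 on the right, coloured by class, with dotted lines at 1 RPKM. The type I chains lie along a diagonal with 28 cells above both lines, while for the type IV chains 11 cells are above both lines and many hold 1 chain only.

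Among the 42 genes found in 10 or more cells there are 861 pairs, with a median Spearman correlation of 0.09 (quartiles -0.03 and 0.21). The highest were Col3a1 with Col1a2 at 0.76, Col3a1 with Col1a1 and Col1a1 with Col1a2 at 0.75 each, Col3a1 with Col5a2 at 0.72, Fn1 with Col1a1 at 0.71 and Col3a1 with Fbn2 at 0.70. The lowest was Adamts9 with Col4a2 at -0.37. Mmp2 and Mmp14 stood at 0.11, Lamb1 and Lamc1 at 0.26, and Col1a1 and Vcan at -0.25. All classes are pooled here, so differences between classes enter these values.

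Some members are neighbours in the genome. Col3a1 and Col5a2 lie 24625 bases apart on chromosome 1. They were found together in 20 cells, against 12.6 if independent with all classes pooled, and both were higher in Foxd1-only cells. Adamts1 and Adamts5 lie 55042 bases apart on chromosome 16. All 6 cells with Adamts5 also held Adamts1, against 4.78 if independent, since Adamts1 was found in 39 cells. Dcn and Lum, 47339 bases apart on chromosome 10, were found together in 2 cells, against 0.367 if independent.

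Genes of the same process outside the symbol pattern, such as collagen-modifying enzymes, microfibril proteins and adhesion adaptors, were taken from a list of 59, of which 52 were analysed. Of these, 20 (38.5%) were higher in Foxd1-only cells, against 7.78% of all genes, and 5 (9.62%) were lower, close to the 8.75% of all genes. The median difference was 0.80. This list was chosen with earlier results of these data known, so these shares are no independent check of the members. Collagen processing genes among the higher ones were Pcolce, the procollagen proteinase enhancer, at 3.72, and Bmp1, the procollagen C-proteinase, at 1.84. The hydroxylase genes P4ha1 at 1.47 and Plod2 at 1.39 were also higher. The hydroxylase genes Lepre1 (0.60), Plod1 (0.52), Plod3 (0.04) and P4ha2 (-0.16) were not past the difference. Nor were Loxl1 (0.84) and Loxl2 (0.10), for other collagen-modifying enzymes. Pcolce was found in 12 of 15 Foxd1-only cells and 3 of 18 Six2-only cells, with a median of 34.3 RPKM in Foxd1-only cells and 0 in Six2-only cells. Of the 7 listed genes for adhesion proteins inside the cell that act with integrins, Ptk2 (1.88), Lims1 (1.66) and Ilk (1.34) were higher, Tln1 (0.92), Vcl (0.77) and Parva (0.64) were not past the difference, and Pxn (-1.07) was lower. The collagen chaperone gene Serpinh1 was found in 46 cells, with a difference of 0.29. Of the genes analysed for microfibrils and elastic fibres, Efemp1 (3.21), Emilin1 (1.43) and Mfap2 (1.33) were higher and Mfap4 (-1.09) was lower. Efemp2 (0.97), Ltbp4 (0.31) and Ltbp1 (-0.25) were not past the difference. Ecm1 (2.35) and Plat (2.26) were also among the higher genes.

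The 5 lower genes, a share near that of all genes, were Has2 at -3.36, Sdc4 at -2.69, Thbs1 at -2.29, Mfap4 at -1.09 and Pxn. Has2 makes hyaluronan, the polymer that versican binds. It was found in 3 of 15 Foxd1-only cells, 6 of 9 with both, 4 of 7 with neither and 16 of 18 Six2-only cells, with medians of 0.119, 18.5, 1.35 and 21.6 RPKM. Hapln1, which links hyaluronan to such proteoglycans, went the other way, with a difference of 1.57 and 6 Foxd1-only against 0 Six2-only cells.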

How the data were processed

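Single cells were dissociated with trypsin, captured on the Fluidigm C1 and amplified with SMARTer chemistry; libraries were made with Nextera XT and run on a HiSeq2500, per the labels' protocols. This chemistry keeps neither strand nor molecular identifiers. The authors deposited RPKM per gene and cell, per the file headers. The submitters' processing notes name the build mm9 and the tools TopHat 1.4.1 and DESeq, without their roles; which counter and annotation were used is not given in the sources. Every gene of the table exceeds 3 RPKM in at least 1 cell, which was checked for all 13093 genes.

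Columns were matched to cells by cell number, and 0 columns of values per cell were left unused. No cell was filtered and no doublet caller was run; chambers were inspected by microscope, per the labels' protocols. A gene counted as found at 1 RPKM, and differences used a pseudocount of 1 RPKM. Shares carry exact (Clopper-Pearson) 95% intervals that cover counting error only. Cells expected if independent are the product of the single shares times 49, with all classes pooled. Relative depth was read from the most frequent ratio between a cell's values below 8 RPKM and those of cell 1, where small read numbers are equal; at least 63 of at least 883 genes shared that ratio. Reads per gene were not recovered, and total depth is unknown. The scripts were tested on simulated data.

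The members and gene lists were chosen with earlier results of these data known. Values by class are given for genes found in 25 or more cells, genes past the difference and chains of a complex. The grouping by role, the motifs, the neighbours within 200000 bases, the pairs named and further genes singled out for the value of 1 cell or for a partner were chosen after values were seen. Table coordinates are on mm9 and printed as deposited, without knowing if they count from 0 or 1; promoter windows are on GRCm38.p6. Alternatives varied the detection threshold, the pseudocount, a filter on genes, the status threshold, the mean, the scaling and the cells used. Python 3.11.15, numpy 2.4.6, pandas 2.3.3, SciPy 1.17.1 and matplotlib 3.10.9 were used.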

Additional observations from a re-analysis of the deposited data

How the results depend on the processing

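None of the 23 genes past the difference changed sign under the alternatives run, but 14 fell short of 1 under at least 1 of them, and 9 stayed past it under all: Adamts1, Adamts6, Col1a1, Col1a2, Col3a1, Col5a2, Fbn2, Fn1 and Mmp2. Of 18 further differences that were not past 1, 6 changed sign under at least 1 alternative (Fbln1, Timp2, Lamc1, Itga4, Itga6 and Itgb3bp), as Fbln1 did to -0.48 with the median over cells. The number of members found in 25 or more cells, 16 at 1 RPKM, was 32 at 0.1 RPKM and 9 at 10 RPKM, and the median number per cell, 25, was 35 and 15. The number of higher members, 22, was 35 with a pseudocount of 0.1 RPKM (16.5% of all genes higher) and 9 with one of 10 RPKM (1.33% of all genes); under the other alternatives it ran from 17 to 25. The number of lower members, 1, was 6 with a pseudocount of 0.1 RPKM, 0 with status at 0.1 RPKM, 2 with status at 5 RPKM, 3 with status at 10 RPKM, 2 with the median over cells, 2 without cells 25 and 27 and 3 with each cell rescaled to the same sum of RPKM. The median member difference, 0.27, was 0.57 with a pseudocount of 0.1 RPKM, 0.75 over members found in at least 5 cells (55 genes) and 0 with the median over cells. A higher detection threshold can only lower the counts of genes found, and a larger pseudocount weighs low levels less. Fewer genes enter the count under the filter. The cause of the other changes was not tested. Without cells 3 and 7, 22 of the 23 genes stayed past the difference, and without cells 25 and 27, 20 did (Mmp11, Nid1 and Col4a5 did not). No paired analysis was possible because the cells form 1 group, and no embryo is named. The number of cells per class limits every value, and a gene listed at 0 may have been present below what these libraries show.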

Other observations

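Single cells differed in which matrix gene led them. Besides Sparc, Vcan, Itgb1 and Mmp2, the highest of the 90 genes was a different member in 1 cell each: Adamts1, Col1a2, Col9a1, Dcn, Fbln1, Fn1, Itgb3bp, Itgb5 and Mmp23. Cell 39, with neither regulator, was led by Dcn at 325 RPKM and also held the highest values of Lum, Mmp11 and Col22a1. Cell 31, with both regulators, held the highest values of Bgn, Mmp16, Mmp23 and Adamts18. Cell 42, a Foxd1-only cell, held the highest values of 6 members, among them Adamts6 at 114 RPKM, Mmp14 at 97.2 RPKM and Adamts3 at 64.4 RPKM. Cell 44, which held only 9 members, had the highest values of Nid1 at 148 RPKM and Itga9 at 91.4 RPKM.

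Of the 90 members, 12 (13.3%) were found in none of the 15 Foxd1-only cells, against 11.5% of all genes, and 28 (31.1%) in none of the 18 Six2-only cells, against 12.5% of all genes. The classes differ in size, and no test was made. Of the 28, Adamts18, Adamts19, Adamts5, Bgn, Col18a1, Col24a1, Col6a2, Dcn and Lama2 were found in 4 or more cells of the other classes. Of the 12, only Col14a1 was found in 4 or more.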
